A study of Mus musculus with 30 samples.

Results

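Brains of mice without Tmem106b (KO, genotype Tmem106b -/-) were compared with brains of wild-type mice (WT, Tmem106b +/+) within the samples labelled cohort 2. The comparison rested on 4 KO and 4 WT libraries out of the 30 in the series, assigned by the cohort and genotype labels; the comparison itself was taken up with earlier results of these data known. All mice were 8 months old, and each genotype of the cohort held 2 females and 2 males. By the labels, RNA came from the cerebral hemispheres, was extracted together for the whole series, and was sequenced as standard libraries of total RNA. Cohort 2 also held 4 heterozygous mice (HET, Tmem106b +/-), and cohort 1 held 6 WT and 6 KO mice that share no animal with it. The labels give neither the mouse strain, nor which stretch of Tmem106b was altered, nor what set the cohorts apart. Nothing in the labels ties a library to a litter, so p-values measure the spread between these mice.

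TMEM106B is a membrane protein of late endosomes and lysosomes, and common variants of the human gene are linked to the risk of frontotemporal dementia. Oligodendrocytes wrap axons of the brain in myelin, a stack of membrane rich in cholesterol and galactolipids and held together by a small set of abundant proteins. Compact myelin is the tightly packed part of this stack, while non-compact myelin includes the channels and surfaces where cytoplasm and adhesion proteins remain. Myelin genes are switched on by transcription factors of the oligodendrocyte lineage, among them Sox10, Olig1 and Myrf.

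Values are the deposited log2 RPKM, that is, read density per kilobase of transcript scaled to library size, on a log2 scale and adjusted by conditional quantile normalisation (cqn). A change is the KO mean minus the WT mean on that scale, with its standard error (SE), and a gene is called at a Benjamini-Hochberg adjusted p below 0.05 in limma over 23695 genes. The spread behind each SE was shared across the 6 groups of mice in the series. The files hold no read counts, so the depth of the libraries is unknown.

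The labelled genotypes were first checked against Tmem106b itself (Ensembl gene ENSMUSG00000029571, chr6:13069759-13089269 on mm10). Its level was 9.06, 9.15, 9.27 and 9.06 log2 RPKM in the WT mice, 8.57, 8.54, 8.58 and 8.55 in the HET mice, and 7.49, 7.48, 7.53 and 7.51 in the KO mice. The 3 genotypes did not overlap, and the order followed the number of intact copies. The change was -1.63 ± 0.04 (SE, adjusted p = 9.74e-21), which left 32.2% of the WT level in KO brains. It was -1.65 in females and -1.62 in males. The exact two-sided permutation test over the 8 mice gave p = 0.0286, the smallest that 4 against 4 mice allow.

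The KO libraries of mice 1 and 3 stood apart from the rest in genes of other tissues. In KO mouse 3, a female, the mean of 5 blood genes was 11.63 log2 RPKM, against 7.94 to 9.34 in the other 11 libraries of the cohort, and their summed level reached 24000 RPKM against at most 5300. In KO mouse 1, a male, the mean of 13 hypothalamus and pituitary genes was 7.95, against 4.17 to 6.45 elsewhere. Growth hormone (Gh) reached 12.65 and prolactin (Prl) 11.23 log2 RPKM in KO mouse 1, while Gh lay between 0.37 and 7.85 and Prl between 0.86 and 9.02 in the other 11. No gene of either list had a mean at or below 0 in the WT, HET or KO mice of cohort 2. Cerebellum genes were high in every library of the cohort. The mean of 8 such genes ran from 8.75 to 9.41 in WT, 9.02 to 9.23 in HET and 8.86 to 9.20 log2 RPKM in KO mice. Whether the tissue taken held cerebellum was not tested. The RNA integrity number ran from 8.5 to 10 in KO and from 9 to 10 in WT mice. Counts without the libraries of KO mice 1 and 3 are given beside the results. The part of RNA of other tissues in the results was not tested beyond that.

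**Figure D1:**
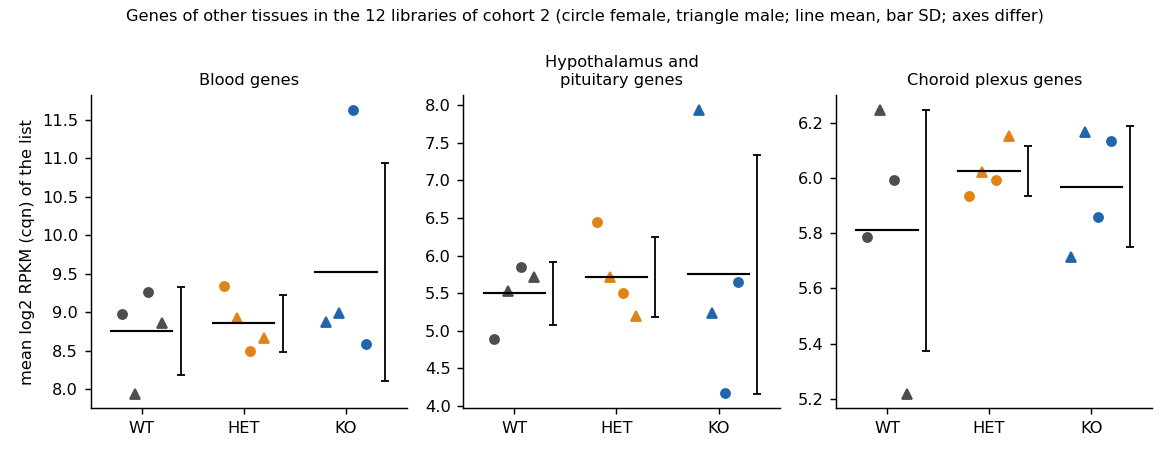
Mean log2 RPKM of blood, hypothalamus and pituitary, and choroid plexus genes (vertical axes) in each WT, HET and KO mouse of cohort 2, with circles for females, triangles for males, a line for the mean and a bar for the SD (n = 4). KO mouse 3 stands out at 11.63 for blood genes and KO mouse 1 at 7.95 for hypothalamus and pituitary genes, while choroid plexus genes spread widely among WT mice.

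Within cohort 2, loss of Tmem106b went with lower RNA of myelin genes and higher Gfap. Of 23695 genes tested, 12 were called (0.0506%), of which 11 were lower (0.0464%) and 1 was higher (0.00422%) in KO. Apart from Tmem106b, 10 genes fell and Gfap rose. The changes of these 11 genes were small, from 0.195 to 0.409 in size with a median of 0.328. In each of the 11 the 4 KO mice and the 4 WT mice did not overlap. These genes were called for a gap between the same mice, so this is a description only. Of all genes tested, 1.09% had all KO mice below and 1.10% all KO mice above the WT mice. Over all genes the median change was 0.00282, and 1264 genes (5.33%) had an unadjusted p below 0.05, 630 lower and 634 higher.

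The calls other than Tmem106b rested on the spread shared with the mice of the other groups. Fitted on the 12 libraries of cohort 2 alone, limma called 4 genes, namely Tmem106b, Cldn11, Fa2h and Mal. Fitted on the 8 KO and WT libraries alone, it called only Tmem106b, and Cldn11 had an adjusted p of 0.121. Without KO mouse 3 the count was 5, and without KO mice 1 and 3 together it was 2, Tmem106b and Cldn11. Without WT mouse 2 it was 4, without WT mouse 3 it was 5, and without WT mouse 4 it was 7.

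**Figure D2:**
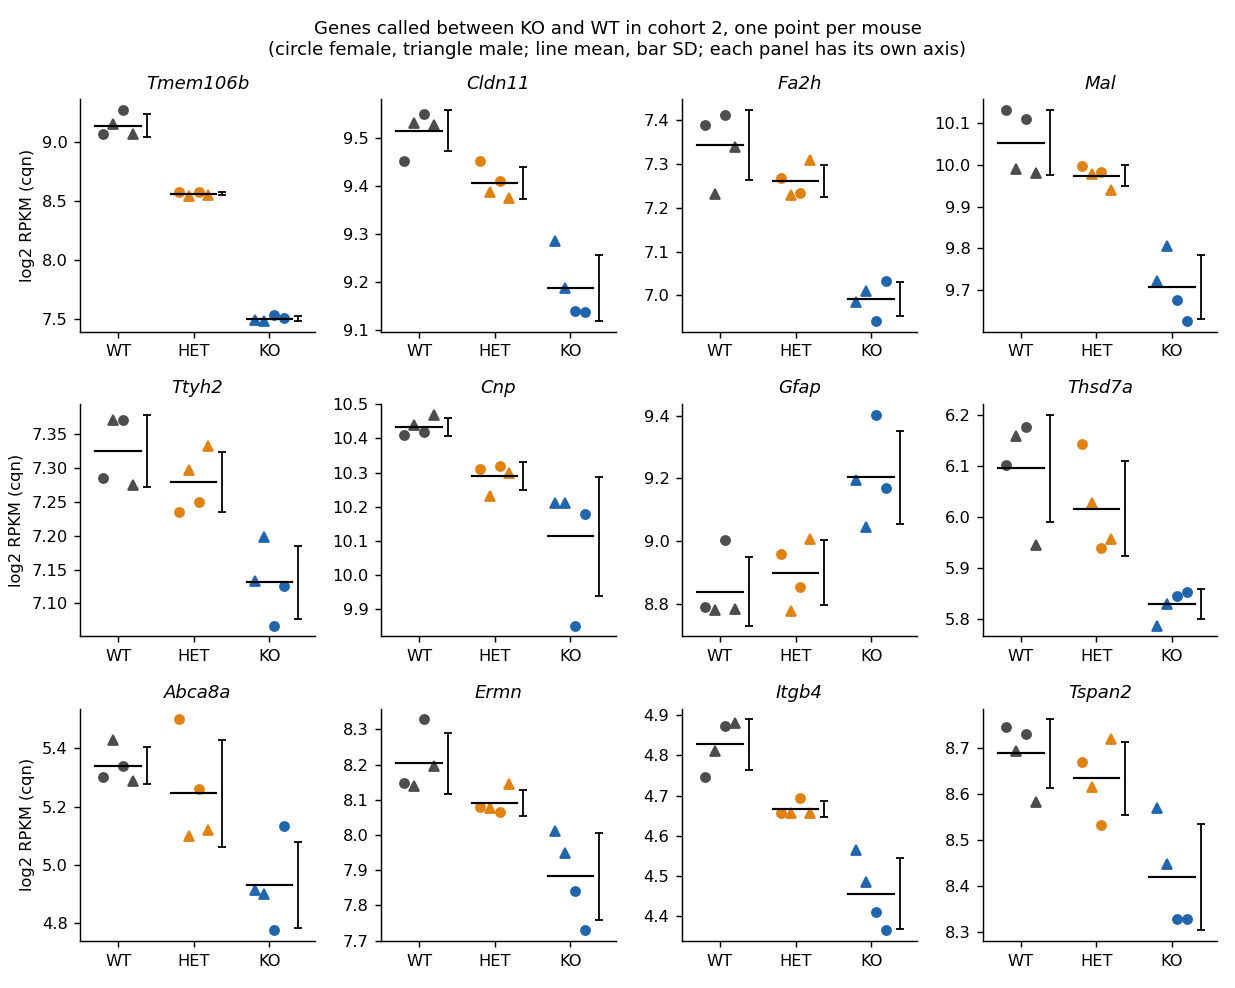
Log2 RPKM (vertical axes, which differ between panels) of the 12 called genes in every WT, HET and KO mouse of cohort 2, with circles for females, triangles for males, a line for the mean and a bar for the SD (n = 4). The KO mice lie below all WT mice in 11 panels and above them for Gfap, and Tmem106b falls in steps from about 9.06 to 9.27 in WT through HET to 7.48 to 7.53 in KO.

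Of the called genes, 3 encode proteins of compact myelin. Cldn11 encodes the claudin of the tight junctions between myelin layers. It stood at 9.45, 9.53, 9.55 and 9.53 log2 RPKM in WT and at 9.29, 9.19, 9.14 and 9.14 in KO mice. It fell by 0.33 ± 0.04 (SE, adjusted p = 7.98e-05), to 79.7% of the WT level. The HET mice, at 9.45, 9.39, 9.41 and 9.38, lay below every WT mouse and above every KO mouse. HET mouse 1 and the lowest WT mouse nearly met, both at 9.45 after rounding. Mal encodes a proteolipid that sorts membrane into myelin. Its levels were 10.13, 9.99, 10.11 and 9.98 in WT, 10.00, 9.98, 9.98 and 9.94 in HET, and 9.72, 9.81, 9.68 and 9.63 in KO mice. Mal fell by 0.34 ± 0.05 (adjusted p = 0.00262), with HET mice close to the lower WT mice and above all KO mice. Tspan2, a tetraspanin of the myelin sheath, stood at 8.75, 8.69, 8.73 and 8.58 in WT and 8.57, 8.45, 8.33 and 8.33 in KO mice. The lowest WT mouse (8.582) and the highest KO mouse (8.57) nearly met, and it fell by 0.27 ± 0.05 (adjusted p = 0.0288). Tspan2 lost its call in 11 of 19 other settings.

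A further 2 called genes encode proteins of non-compact myelin. Cnp, a phosphodiesterase that keeps cytoplasmic channels of myelin open, stood at 10.41, 10.44, 10.42 and 10.47 log2 RPKM in WT and 10.31, 10.23, 10.32 and 10.30 in HET mice. In KO mice Cnp stood at 10.21, 10.21, 9.85 and 10.18, with mouse 3 far below the other 3. Cnp fell by 0.32 ± 0.06 (adjusted p = 0.0130), and the 3 genotypes did not overlap. Ermn encodes ermin, a cytoskeletal protein of myelinating oligodendrocytes. It stood at 8.15, 8.14, 8.33 and 8.20 in WT and 8.01, 7.95, 7.84 and 7.73 in KO mice, and fell by 0.32 ± 0.06 (adjusted p = 0.0230). Galnt5, which overlaps Ermn in the annotation, stood at -0.25 (adjusted p = 0.91), and Dnajc7, which overlaps Cnp, at -0.02 (adjusted p = 0.999). Whether strand was used in counting is not stated in the labels, and without it reads of overlapping genes cannot be told apart.

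The promoters of Cnp, Ermn, Cldn11 and Mal are shown because these genes moved together and because Sox10, a factor of the oligodendrocyte lineage, was among the factors measured. The 300-base windows run from 250 bases before to 50 bases after the start of transcription and are from RefSeq on GRCm38.p6. A script searched both strands for ACAAAG and for ACAATG, short letter strings that Sox factors are known to bind, and capitals mark a match. The 2 strings do not overlap each other in these windows. Of 32851 promoters of this length, 28.6% held at least 1 match, and 10 of the 12 called genes had a promoter in the table. Matches stood in the windows of Cnp and Ermn and in the downstream window listed for Tspan2. The upstream window of Tspan2 and the windows of Cldn11 and Mal held none. Whether the called genes differ from the share over all promoters was not tested. A match is only a match of letters.
Cnp, chr11:100574689-100574988, plus strand: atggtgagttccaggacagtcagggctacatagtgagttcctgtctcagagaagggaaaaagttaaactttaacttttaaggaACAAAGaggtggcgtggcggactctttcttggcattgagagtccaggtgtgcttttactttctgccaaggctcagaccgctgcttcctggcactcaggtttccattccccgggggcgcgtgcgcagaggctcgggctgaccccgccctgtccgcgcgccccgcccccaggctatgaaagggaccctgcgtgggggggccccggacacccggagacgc
Ermn, chr2:58052815-58053114, minus strand: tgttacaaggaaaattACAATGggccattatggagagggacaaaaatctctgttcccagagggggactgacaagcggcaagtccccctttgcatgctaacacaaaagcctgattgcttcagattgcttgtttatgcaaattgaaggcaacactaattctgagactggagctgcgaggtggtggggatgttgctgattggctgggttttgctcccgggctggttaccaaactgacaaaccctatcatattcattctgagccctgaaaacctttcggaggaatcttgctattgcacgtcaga
Cldn11, chr3:31149670-31149969, plus strand: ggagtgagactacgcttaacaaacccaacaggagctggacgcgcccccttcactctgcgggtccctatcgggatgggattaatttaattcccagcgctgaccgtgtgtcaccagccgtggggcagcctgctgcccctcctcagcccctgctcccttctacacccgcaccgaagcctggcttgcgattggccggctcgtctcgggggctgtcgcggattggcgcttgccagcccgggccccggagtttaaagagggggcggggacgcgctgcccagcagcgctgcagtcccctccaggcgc
Mal, chr2:127656646-127656945, minus strand: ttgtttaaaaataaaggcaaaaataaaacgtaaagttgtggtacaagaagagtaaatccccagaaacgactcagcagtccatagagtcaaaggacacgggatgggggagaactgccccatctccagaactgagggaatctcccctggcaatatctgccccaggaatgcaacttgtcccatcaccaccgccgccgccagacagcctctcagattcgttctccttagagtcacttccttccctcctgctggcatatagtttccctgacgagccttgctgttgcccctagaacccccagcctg

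Fa2h was the called gene of myelin lipid synthesis. It encodes the hydroxylase that makes the hydroxylated fatty acids of myelin galactolipids. Its level was 7.39, 7.23, 7.41 and 7.34 log2 RPKM in WT, 7.27, 7.23, 7.23 and 7.31 in HET, and 6.98, 7.01, 6.94 and 7.03 in KO mice. The KO mice were tightly grouped below all others, and Fa2h fell by 0.35 ± 0.05 (adjusted p = 0.00241), to 78.4% of the WT level. Cldn11, Fa2h and Mal kept their calls when each mouse of either group was left out in turn. Fa2h and Mal lost them without KO mice 1 and 3 together, at adjusted p of 0.114 and 0.113.

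The other 4 falls lay outside the lists of myelin genes. Abca8a, a lipid transporter of the ABCA family, stood at 5.30, 5.43, 5.34 and 5.29 log2 RPKM in WT and 4.91, 4.90, 4.78 and 5.13 in KO mice, and fell by 0.41 ± 0.07 (adjusted p = 0.0191). Its HET mice ran from 5.10 to 5.50 and reached above the highest WT mouse. Itgb4, the integrin beta chain of laminin adhesion, stood at 4.75, 4.81, 4.87 and 4.88 in WT, 4.66, 4.66, 4.70 and 4.66 in HET, and 4.57, 4.48, 4.41 and 4.36 in KO mice. Its 3 genotypes did not overlap, and it fell by 0.37 ± 0.07 (adjusted p = 0.0252). Ttyh2, a membrane protein of the tweety family, fell by 0.19 ± 0.03 (adjusted p = 0.00710), from 7.28 to 7.37 in WT to 7.07 to 7.20 in KO mice.

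Thsd7a, a membrane protein with thrombospondin repeats, lies on chromosome 6 at a distance of 320 kb from Tmem106b. Its level was 6.10, 6.16, 6.18 and 5.95 log2 RPKM in WT and 5.79, 5.83, 5.85 and 5.85 in KO mice, with WT mouse 4 closest to the KO mice. Thsd7a fell by 0.27 ± 0.05 (adjusted p = 0.0191). Of the 9 genes tested within 2 Mb of Tmem106b it was the only one called, and Phf14, on its far side from Tmem106b, stood at -0.02 (adjusted p = 0.999). Whether this fall goes with the edited region or with the loss of the protein cannot be told apart.

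Gfap, the intermediate filament of astrocytes that rises in reactive gliosis, was the only called gene that was higher in KO. It stood at 8.79, 8.78, 9.00 and 8.78 log2 RPKM in WT, 8.96, 8.78, 8.85 and 9.01 in HET, and 9.19, 9.05, 9.40 and 9.17 in KO mice. It rose by 0.36 ± 0.06 (adjusted p = 0.0182), to 129% of the WT level. WT mouse 3 stood above the other WT mice and just below the lowest KO mouse. The adjusted p was 0.135 without KO mouse 3, the library high in blood genes, with a change of 0.30. Gfap also lost its call without WT mouse 1, without WT mouse 2 and without WT mouse 4. The same was so in the fits on the 12 or the 8 libraries of cohort 2 alone.

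In all 11 called genes other than Tmem106b the HET mean lay between the WT and KO means, against 34.2% of all genes tested. The 11 genes were picked for a gap between WT and KO and the contrasts share mice, so this is a description only. Between HET and WT mice 2 genes were called (0.00844%), Tmem106b at -0.58 and the gene RP23-27L18.4 at 0.70 (adjusted p = 0.0172). RP23-27L18.4 stood at 0.54 in KO against WT (adjusted p = 0.0887). Between KO and HET mice 1 gene was called (0.00422%), Tmem106b at -1.06. In 10 of the 11 genes the KO minus WT difference was larger in the 2 females than in the 2 males. The widest gaps were in Tspan2, at -0.41 in females and -0.13 in males, and in Ermn, at -0.45 and -0.19. The difference between the sexes was not tested, its share over all genes was not counted, and KO mouse 3 is one of the 2 KO females.

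Myelin and oligodendrocyte genes were then followed as groups. The 5 lists of compact myelin, non-compact myelin, myelin lipid synthesis, lineage transcription factors and other mature oligodendrocyte genes held 63 genes, all of which passed the filter on low values. Of these, 6 were called lower and 0 higher, against 0.0464% and 0.00422% of all genes tested. In 60 the KO mean was below the WT mean, against 48.5% of all genes. The median change was -0.162 against 0.00282 over all genes. In 27 of the 63 (42.9%), the 6 called genes among them, all 4 KO mice lay below all 4 WT mice, and in 0 above. Over all genes tested, 1.09% had all KO mice below and 1.10% all KO mice above the WT mice. The lists were written with earlier results of these data known. Their genes were measured in the same 8 mice and are not independent, so these counts are a description only. In bulk tissue, fewer oligodendrocytes and less of these RNAs per oligodendrocyte cannot be told apart.

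**Figure D3:**
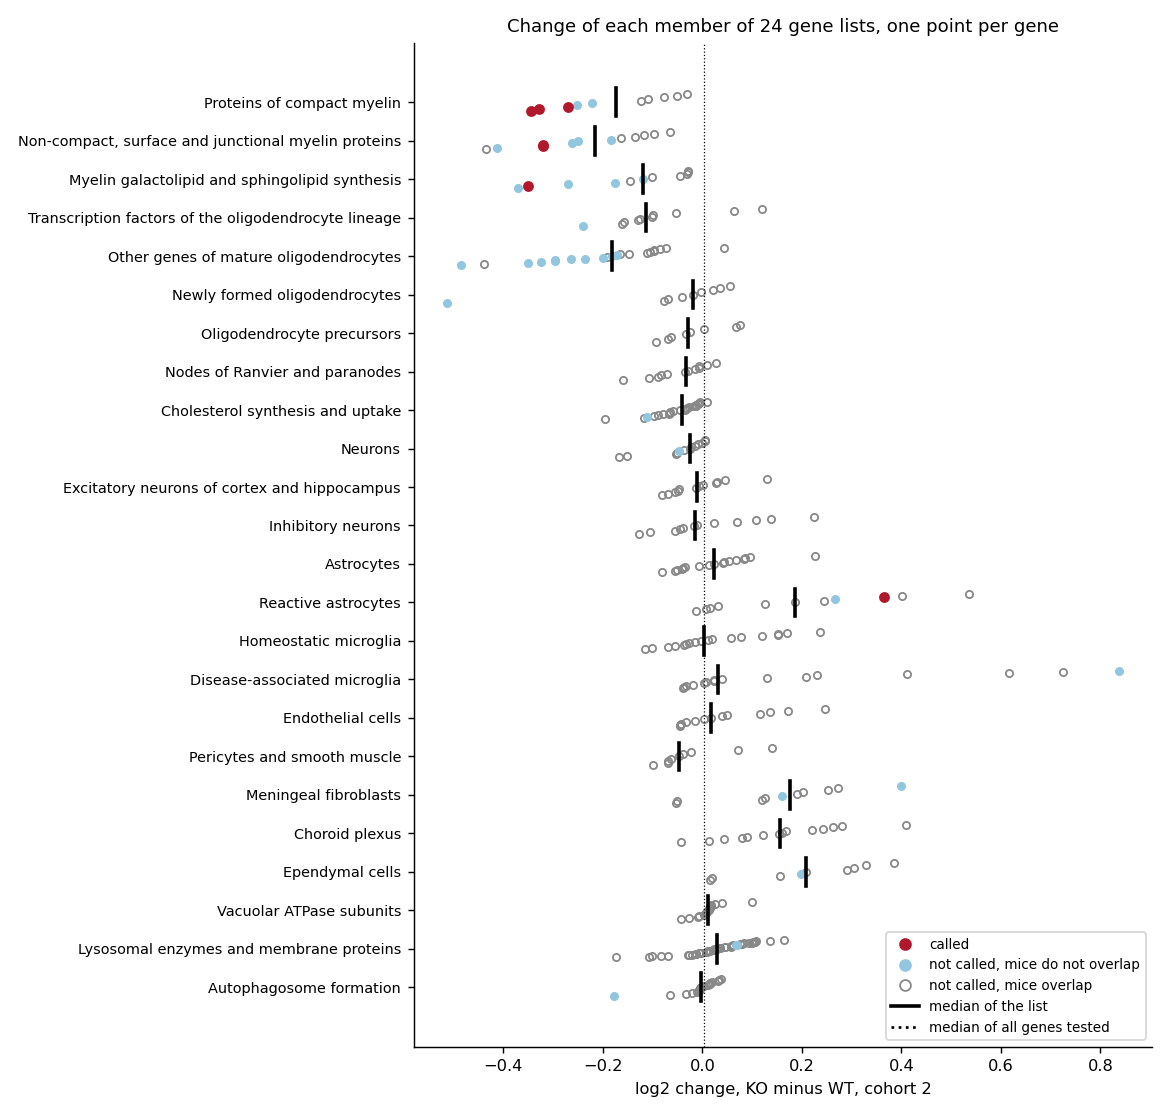
Log2 change between KO and WT in cohort 2 (horizontal axis) for each gene of 24 lists (rows), in red where called, in blue where the mice of the groups did not overlap and in open grey otherwise, with a black bar at the median of each list. The 5 lists at the top have medians from -0.217 to -0.114, and newly formed oligodendrocytes and precursors lie near 0 apart from Enpp6 at -0.51.

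Among 10 genes of compact myelin, 3 were called lower and none higher, against 0.0464% of all genes tested called lower. All 10 had a KO mean below the WT mean, against 48.5% of all genes, and the median was -0.173. The mean level of the list was 9.77, 9.74, 9.81 and 9.71 log2 RPKM in WT and 9.67, 9.59, 9.54 and 9.51 in KO mice, with HET mice from 9.64 to 9.73. KO and WT mice did not overlap in this mean. Mbp, which encodes the myelin basic protein and was the most abundant of the list, stood at only -0.11 ± 0.04 (adjusted p = 0.84). Pllp, which encodes plasmolipin, stood at -0.22 (adjusted p = 0.815), with no overlap between the groups. In 5 of the 10 genes all KO mice lay below all WT mice, against 1.09% of all genes tested.

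All 12 genes of non-compact and surface myelin had a KO mean below the WT mean, against 48.5% of all genes tested. Of the 12, 2 were called lower, against 0.0464% of all genes, and the median was -0.217. The list mean was 7.87, 7.91, 7.93 and 7.91 log2 RPKM in WT and 7.75, 7.73, 7.55 and 7.65 in KO mice. Mog, a surface glycoprotein of the outermost myelin layer, stood at 8.81 to 8.87 in WT and 8.47 to 8.76 in KO mice, a change of -0.25 ± 0.05 (adjusted p = 0.0935). Mag, the adhesion protein that faces the axon, stood at -0.18 (adjusted p = 0.462), and the gap junction protein Gjb1 at -0.26 (adjusted p = 0.366). Ninj2, an adhesion protein, stood at -0.41 (adjusted p = 0.705). These 4 were among 6 of the 12 genes with all KO mice below all WT mice, against 1.09% of all genes tested. None of the 4 passed the test.

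In the list of galactolipid and sphingolipid synthesis, 1 of 11 genes was called lower, Fa2h, against 0.0464% of all genes tested. All 11 had a KO mean below the WT mean, against 48.5% of all genes, and the median was -0.12. Ugt8a, which makes galactosylceramide, stood at 7.74, 7.88, 8.12 and 7.91 log2 RPKM in WT and 7.58, 7.56, 7.35 and 7.66 in KO mice. Its change was -0.37 ± 0.08 (adjusted p = 0.0887), close to that of Fa2h but with more spread among WT mice. Gal3st1, which sulfates galactosylceramide to sulfatide, stood at -0.27 (adjusted p = 0.265), the glycolipid carrier Gltp at -0.18 (adjusted p = 0.555), and the ceramide synthase Cers2 at -0.12 (adjusted p = 0.825). The smallest sizes were in enzymes used by all cells, such as Kdsr and Degs1, both at -0.03.

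**Figure D4:**
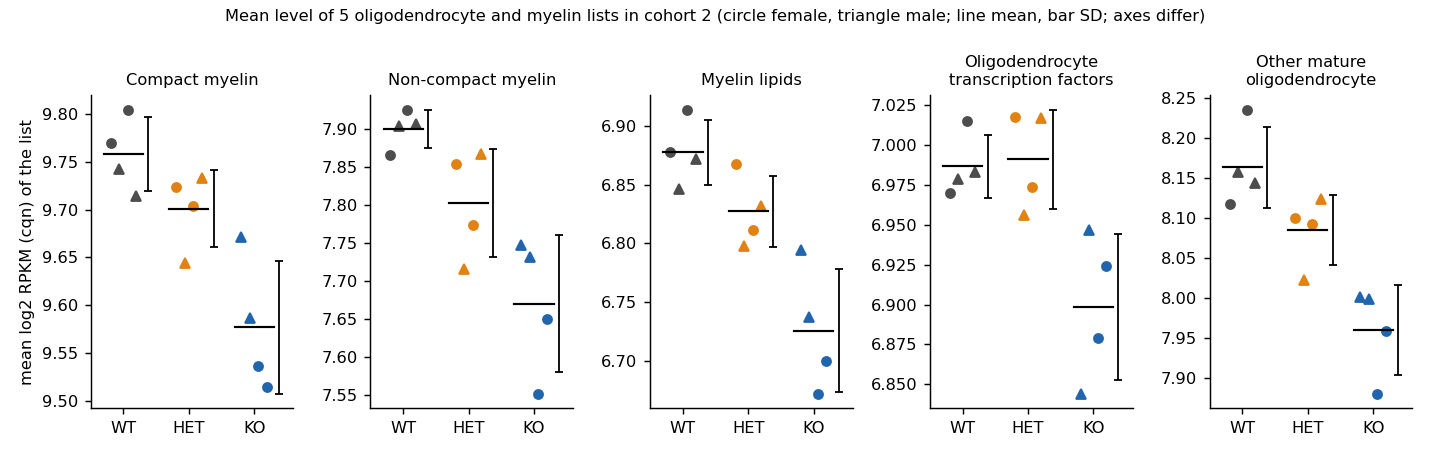
Mean log2 RPKM of 5 oligodendrocyte and myelin lists (vertical axes, which differ between panels) in each WT, HET and KO mouse of cohort 2, with circles for females, triangles for males, a line for the mean and a bar for the SD (n = 4). In every panel the 4 KO mice lie below the 4 WT mice, with compact myelin at 9.51 to 9.67 in KO against 9.71 to 9.81 in WT.

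Transcription factors of the lineage had 0 of 10 genes called and a median of -0.114. In 8 the KO mean was below the WT mean, against 48.5% of all genes tested. Myrf, the regulator that turns on myelin genes in differentiating cells, stood at 6.38, 6.46, 6.63 and 6.53 log2 RPKM in WT and 6.34, 6.33, 6.18 and 6.20 in KO mice (-0.24 ± 0.06, adjusted p = 0.203). It was the only 1 of the 10 factors with no overlap, against 1.09% of all genes tested with all KO mice below. Sox10 stood at -0.16 ± 0.07 (adjusted p = 0.926) and Olig1 at -0.16 (adjusted p = 0.852). Sox10 was at -0.45 in cohort 1, and the difference between cohorts was 0.29 (adjusted p = 0.341).

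Other genes of mature oligodendrocytes had 0 of 21 called and a median of -0.182. In 20 the KO mean was below the WT mean, against 48.5% of all genes tested. In 10 of the 21 all KO mice lay below all WT mice, against 1.09% of all genes tested. Anln, which encodes the septin binder anillin, stood at 6.80, 6.95, 7.04 and 7.001 log2 RPKM in WT and 6.70, 6.50, 6.67 and 6.51 in KO mice (-0.35 ± 0.07, adjusted p = 0.0574). Hhip, an inhibitor of hedgehog ligands, stood at -0.49 ± 0.12 (adjusted p = 0.189). Gpr37, a receptor of myelinating cells, stood at -0.30 (adjusted p = 0.0935), and Ppp1r14a, a phosphatase inhibitor, at -0.33 (adjusted p = 0.31).

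Earlier stages of the lineage stood nearer to 0. Of 9 genes of newly formed oligodendrocytes 0 were called, and the median was -0.0195. Enpp6, a choline phosphodiesterase of cells that begin to myelinate, stood at 4.22, 4.39, 4.41 and 4.34 log2 RPKM in WT, 3.92, 3.97, 4.05 and 4.04 in HET, and 4.05, 3.83, 3.57 and 3.85 in KO mice. Its change was -0.51 ± 0.12 (adjusted p = 0.122), and all HET mice lay below every WT mouse. Bcas1, another gene of that stage, stood at 0.06 (adjusted p = 0.999). Of 8 precursor genes 0 were called, with a median of -0.0295 and Pdgfra, the growth factor receptor of precursors, at -0.06 (adjusted p = 0.999). Of 9 precursor genes listed, 1 did not pass the filter on low values. No difference between stages was tested.

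Cholesterol synthesis and uptake, the other lipid supply of myelin, had 0 of 22 genes called. As many as 21 had a KO mean below the WT mean, against 48.5% of all genes tested, but the median was only -0.0404. Sc5d, an enzyme of a late step, stood at -0.11 (adjusted p = 0.84). It was the only 1 of the 22 without overlap, against 1.09% of all genes tested with all KO mice below. Genes of nodes and paranodes, the gaps between myelin segments, had 0 of 12 called and a median of -0.0329.

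Lysosomal genes, the compartment in which TMEM106B resides, did not pass the test. None of 44 lysosomal enzymes and membrane proteins was called, with a median of 0.0282. There were 31 KO means above the WT mean and 13 below, against 48.5% below over all genes tested. Ctsz and Ctsa, a cathepsin and the protective protein of galactosidase, both stood at 0.07 (adjusted p = 0.982 and 0.96). They were the only 2 of the 44 without overlap, against 1.10% of all genes tested with all KO mice above. The vacuolar ATPase acidifies lysosomes; none of its 18 subunits was called, and the median was 0.0115. None of 19 genes of autophagosome formation was called. Wipi1, which binds membrane lipids on forming autophagosomes, stood at 6.22, 6.25, 6.35 and 6.30 log2 RPKM in WT and 5.95, 6.12, 6.15 and 6.18 in KO mice (-0.18, adjusted p = 0.338). The paralogs Tmem106a and Tmem106c stood at -0.02 and 0.00 (adjusted p = 1.00 for both).

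Astrocyte identity genes had 0 of 17 called and a median of 0.023. The list of reactive astrocytes, to which Gfap belongs, had 1 of 11 called higher, against 0.00422% of all genes tested. Its median was 0.185. In 10 of those 11 the KO mean was above the WT mean and in 1 below, against 48.5% below over all genes. C4b, a complement component, stood at 5.85, 5.76, 5.94 and 5.88 log2 RPKM in WT and 6.20, 6.10, 6.12 and 6.09 in KO mice (0.27 ± 0.08, adjusted p = 0.498). Gfap and C4b were the only 2 of the 11 without overlap, against 1.10% of all genes tested with all KO mice above. Vim, the other intermediate filament of the list, stood at 0.01 (adjusted p = 0.999). The list median was 0.13 without KO mouse 3 and 0.26 without KO mouse 1. In cohort 1 the median of the list was -0.105, with 1 gene called lower, Steap4 at -1.24 (adjusted p = 0.00556), which stood at 0.40 in cohort 2 (adjusted p = 0.999).

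Microglia genes had no call, with medians of 0.00404 over 18 homeostatic and 0.0312 over 16 disease-associated genes. Clec7a, a lectin receptor of activated microglia, stood at 2.20, 1.495, 1.98 and 1.61 log2 RPKM in WT and 2.32, 2.53, 3.45 and 2.33 in KO mice (0.84 ± 0.29, adjusted p = 0.727). The groups did not overlap, and KO mouse 3 was the highest. Clec7a was the only 1 of the 16 without overlap, against 1.10% of all genes tested with all KO mice above. Trem2 stood at 0.13 (adjusted p = 0.999) and Tyrobp at 0.21 (adjusted p = 0.926).

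Neuronal genes had 0 of 13 called and a median of -0.0254, with Syp at -0.01 and Snap25 at -0.01, both genes of synaptic vesicle release. Excitatory and inhibitory markers had medians of -0.0107 and -0.0142 with no call among 12 genes each. Meningeal fibroblast genes had a median of 0.175 with 0 of 10 called, and ependymal genes one of 0.209 with 0 of 9 called. Choroid plexus genes had a median of 0.156 with 0 of 14 called, and their list mean ran from 5.22 to 6.25 log2 RPKM over the WT mice. Blood genes had a median of 0.722 with 0 of 5 called, which was 0.04 without KO mouse 3. Endothelial genes had a median of 0.0171 with 0 of 13 called.

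Cohort 1 gave a comparison on other mice of the same age. There, 551 genes were called between 6 KO and 6 WT mice (2.33%), 295 lower (1.24%) and 256 higher (1.08%). Of the 11 genes called in cohort 2 other than Tmem106b, all had the same sign in cohort 1 and 8 were called there. Both comparisons came from 1 fit in which each gene had 1 spread for all groups. The calls of the cohorts are therefore not independent, although the mice are. Cldn11 stood at -0.24, Fa2h at -0.41, Mal at -0.28, Cnp at -0.27, Ermn at -0.31, Abca8a at -0.28, Ttyh2 at -0.21 and Thsd7a at -0.16 in cohort 1. Itgb4 (-0.19, adjusted p = 0.0676), Tspan2 (-0.12, adjusted p = 0.128) and Gfap (0.13, adjusted p = 0.216) were not called in cohort 1. The test of the difference between cohorts called none of the 11, with adjusted p from 0.401 for Gfap to 0.976 for Ermn.

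The list medians of cohort 1 stood beside those of cohort 2 at -0.131 for compact myelin, -0.201 for non-compact myelin, -0.12 for myelin lipids, -0.215 for transcription factors and -0.219 for other mature genes. Other lists had medians farther from 0 in cohort 1. The glucocorticoid list was at 0.378 in cohort 1, with 7 of 12 genes called higher and 1 lower, and at 0.0876 with none called in cohort 2. Circadian genes were at 0.222 with 8 of 15 called higher and 1 lower in cohort 1 and at -0.0269 with none called in cohort 2. Some lists had medians of opposite sign. Reactive astrocyte genes were at -0.105 in cohort 1 and 0.185 in cohort 2, and choroid plexus genes at -0.467, with 1 of 14 called lower, and 0.156. Meningeal fibroblast genes were at -0.241, with 5 of 10 called lower in cohort 1, and at 0.175 with none called in cohort 2. The test of the difference between cohorts called 2 genes of the fibroblast list, Igf2 and Slc6a13, and none of the glucocorticoid, circadian, reactive astrocyte or choroid plexus lists. The 294 genes other than Tmem106b that were called lower in cohort 1 had a median of -0.239 there and -0.0328 in cohort 2, with 184 (62.6%) below 0 in cohort 2, against 48.5% of all genes tested. The 256 called higher had medians of 0.162 and 0.00341, with 137 (53.5%) above 0 in cohort 2, a share near that of all genes. The first medians are of genes chosen for their size in cohort 1.

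**Figure D5:**
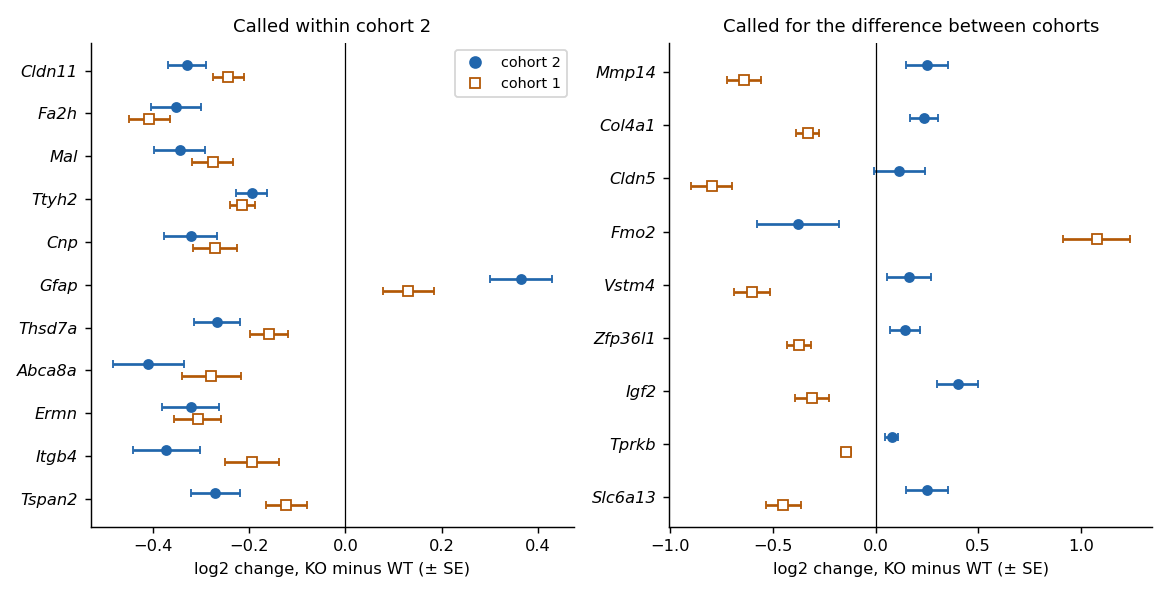
Log2 change between KO and WT with its SE (horizontal axes) in cohort 2 (filled circles, 4 against 4 mice) and cohort 1 (open squares, 6 against 6 mice), for the 11 genes called within cohort 2 other than Tmem106b and for the 9 genes called for the difference between cohorts. The first set has the same sign in both cohorts, from Abca8a at -0.41 in cohort 2 to Gfap at 0.36, while the second set has opposite signs, such as Mmp14 at 0.25 in cohort 2 and -0.64 in cohort 1.

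The change differed between cohorts in 9 genes (0.0380%), 8 with a higher value in cohort 2 (0.0338%) and 1 with a lower one (0.00422%). None of them was called within cohort 2, and all 9 were called in cohort 1 with the opposite sign. The 9 genes were picked for a difference between the cohorts, which favours opposite signs, so this is a description only. Mmp14, a membrane-bound matrix metalloproteinase, stood at 5.47, 5.97, 5.80 and 5.57 log2 RPKM in WT and 5.94, 5.78, 6.13 and 5.97 in KO mice of cohort 2, which overlapped. In cohort 1 its WT mice ran from 5.96 to 6.17 around a median of 6.05 and its KO mice from 5.24 to 5.55 around 5.42. The change was 0.25 ± 0.10 in cohort 2 and -0.64 ± 0.08 in cohort 1, a difference of 0.89 ± 0.13 (adjusted p = 0.00748).

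Col4a1, a collagen chain of vascular basement membranes, stood at 6.19, 6.03, 6.24 and 6.24 log2 RPKM in WT and 6.26, 6.32, 6.49 and 6.58 in KO mice of cohort 2. Its change was 0.23 ± 0.07 in cohort 2 and -0.33 ± 0.06 in cohort 1 (difference 0.56, adjusted p = 0.00748). Cldn5, the claudin of the blood-brain barrier, stood at 0.12 and -0.80 in cohorts 2 and 1 (adjusted p of the difference 0.0277), and the WT mice of cohort 1, at 9.30 to 9.46, lay above all WT mice of cohort 2, at 8.85 to 9.19. Slc6a13, a GABA transporter of meningeal fibroblasts, stood at 0.25 and -0.45 (0.0365), and Igf2, a growth factor of meninges and choroid plexus, at 0.40 and -0.31 (0.0304). Fmo2, a flavin monooxygenase, was the gene with a lower value in cohort 2, at -0.38 against 1.08 (0.0277). Vstm4 (0.16 and -0.60, adjusted p = 0.0277), Zfp36l1 (0.14 and -0.37, adjusted p = 0.0304) and Tprkb (0.08 and -0.14, adjusted p = 0.0312) completed the set. Without KO mice 1 and 3 of cohort 2 together no gene was called, and the adjusted p of Mmp14 was 0.0512. What separates the cohorts beyond the label cannot be told apart from these differences.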

How the data were processed

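RNA labelled as from the cerebral hemispheres was measured in 30 mouse libraries. The authors deposited 1 gene table of log2 RPKM values after conditional quantile normalisation, per the file headers; the labels' protocols and the submitters' processing notes name TopHat2 2.0.12, Bowtie 1.1.0 and mm10. Read counts and depth are not given there, so precision rests on the mice. From the 34871 rows, 23695 genes with a mean above 0 over all libraries were kept. limma 3.58.1 (R 4.3.3) fitted 1 mean per genotype and cohort (6 groups) plus sex to all 30 libraries, with an intensity trend, leaving 23 residual degrees of freedom; it was tested on simulated data with 200 changed genes. Sexes were balanced, so each change equals the difference of the 4-mouse means. Adjusted p-values (Benjamini-Hochberg, limma, two-sided) cover all genes kept. Genes named are Tmem106b, all called genes and, of each list, the called members, up to 4 non-overlapping members with the largest change and the first 2 listed, save a few left out for length; Kdsr, Degs1, Phf14, the overlapping genes and the hormone genes were chosen after their values were seen. The comparison and the lists were chosen with earlier results of these data known. Promoters are RefSeq's. Alternatives, tried 1 at a time, covered the filter, covariates, trend, scaling, libraries fitted and each mouse left out. Figures used Python 3.11.15 and matplotlib 3.10.9.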

Additional observations from a re-analysis of the deposited data

Results flagged for a closer look

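In groups of 4 mice, 2 of 42 tested had a mouse far from the other 3 (gap over range above Dixon's 95% critical value; chance gives about 1 in 20). Cnp stood at 9.851 log2 RPKM in KO mouse 3 of cohort 2, against 10.18 to 10.21 in the other KO mice. Gfap stood at 9.003 in WT mouse 3 of cohort 2, against 8.78 to 8.788 in the other WT mice.

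For 9 genes the KO minus WT change in cohort 2 differed from that in cohort 1 by the limma test of the difference. The difference, cohort 2 minus cohort 1, was 0.8917 for Mmp14, 0.5646 for Col4a1, 0.9145 for Cldn5, -1.456 for Fmo2, 0.765 for Vstm4, 0.5183 for Zfp36l1, 0.7086 for Igf2, 0.2226 for Tprkb and 0.7021 for Slc6a13. In cohort 2 the changes of these genes ran from -0.3776 (Fmo2) to 0.3995 (Igf2), and in cohort 1 from -0.7986 (Cldn5) to 1.078 (Fmo2).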

How the results depend on the processing

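Tmem106b was called in all 19 alternatives, at -1.66 to -1.59. The count of 12 genes between KO and WT was 4 on the 12 libraries of cohort 2, 1 on the 8 KO and WT libraries, 2 without KO mice 1 and 3 together (chosen after seeing the data), and 4 to 17 with each mouse left out. The highest count, 17, came without KO mouse 1. Cldn11 lost its call in 1 of 19 alternatives, Fa2h and Mal in 2, Ttyh2 and Cnp in 6, Gfap in 7, Abca8a in 8, Thsd7a and Ermn in 9, Itgb4 in 10 and Tspan2 in 11; no change of sign occurred among them. The 9 genes that differed between cohorts were 4 without the intensity trend, 0 without KO mice 1 and 3 together, and 2 to 27 with each mouse left out. The count of 2 between HET and WT was 1 on the 12 libraries and 1 to 2 with each mouse left out; that of 1 between KO and HET was 2 with no filter on low values and 1 to 2 with each mouse left out. The smaller fits held fewer mice, and why these counts moved was not tested. Without KO mice 1 and 3 together the list medians were -0.239 for compact myelin, -0.226 for non-compact myelin, -0.125 for myelin lipids, -0.0703 for transcription factors and -0.177 for other mature genes. The files give no depth, so low levels carry an unknown counting error. No paired analysis was possible because nothing in the labels ties a library to a litter.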

Other observations

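Other gene groups had no called member in cohort 2. The median change was 0.0632 over 15 interferon response genes, 0.046 over 16 genes of the unfolded protein response and 0.0216 over 12 heat shock genes. It was -0.0333 over 20 ribosomal protein genes and -0.0378 over 20 nuclear genes of the respiratory chain. The KO mean was below the WT mean in 17 and 16 of them, against 48.5% of all genes tested. KO mouse 1, the library high in pituitary genes, had the highest mean of both groups, at 9.83 log2 RPKM for ribosomal and 10.19 for respiratory genes, against 9.55 to 9.77 and 9.96 to 10.12 in the other KO and WT mice of the cohort.

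Immediate early genes, which neurons switch on when active, stood at a median of -0.0539 here, against -0.615 among the mice of cohort 1, with none of 13 called in either set. Their list mean ran from 7.19 to 7.72 log2 RPKM over the WT mice and from 7.18 to 7.87 over the KO mice of cohort 2. Markers of brain regions had medians of -0.0662 for striatum, -0.0581 for hippocampus, 0.0194 for thalamus, -0.0576 for cerebellum and -0.107 for olfactory bulb, also with no call. In the thalamus list 2 of 8 genes had all KO mice below all WT mice, against 1.09% of all genes tested. In 5 of the 8 the KO mean was above the WT mean and in 3 below, against 48.5% below over all genes tested. Tnnt1, a troponin, stood at 5.45, 5.41, 5.56 and 5.61 log2 RPKM in WT and 5.38, 5.29, 4.99 and 5.01 in KO mice (-0.34 ± 0.09, adjusted p = 0.366). Prkcd, a protein kinase C, stood at 7.43 to 7.46 in WT and 7.16 to 7.35 in KO mice (-0.18 ± 0.05, adjusted p = 0.49). The cerebellar list mean ran from 8.75 to 9.41 over the WT mice, a wider range than the 8.86 to 9.20 over the KO mice.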
